A study of Mus musculus with 6 samples.

Results

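This report describes 4 genes of the vascular basement membrane and its surroundings in mouse endothelial cells after exposure to tobacco smoke: Col4a1, Col4a2, Lamc1 and Sparcl1. They were taken by gene symbol from the probe table of the arrays, which gave 8 features, 2 spots for each gene, out of 24344 features that carry 1 symbol and stand for 11138 named genes. The 4 genes were selected on their low 1-week ratios in an earlier look at these data, so their 1-week values are a description and carry no test.

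The study set RNA of sorted endothelial cells from smoke-exposed mice (channel 1) against RNA of such cells from control mice (channel 2) on 6 arrays. In 3 arrays mice smoked for 1 week were set against control mice, and replicate 1 of these had the dyes reversed. In 2 arrays mice smoked for 6 weeks were set against 1-week control mice, with the dyes reversed on the second, and in 1 array 6-week smoke was set against 6-week control. The labels used here name no strain, sex, age, tissue, sorting marker or smoke dose, give no age for the control of the 1-week arrays, and do not say whether arrays came from separate animals or pools. The p-values therefore measure the spread between arrays, which may be technical, and precision is limited by having so few arrays. The arrays against 1-week control may share control RNA with the 1-week arrays.

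The vascular basement membrane is a sheet of matrix on which endothelial cells sit. Its collagen network is built from heterotrimers of collagen IV, in vessels chiefly made of alpha 1 and alpha 2 chains, and its second network is built from laminins, trimers of an alpha, a beta and a gamma chain. Nidogens and perlecan link the networks, cross-linking enzymes stabilise them, and integrins and dystroglycan hold the cell to them. Proteins of the SPARC family bind collagens and modulate how cells attach to matrix.

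Every value below is a log2 ratio from the deposited table, with its sign as deposited. The titles name smoke before control and channel 1 holds smoke on all 6 arrays, so a negative ratio is read as likely lower after smoke, although the direction is not stated. It is also not stated if the authors already changed the sign of the 2 arrays with reversed dyes. Taken across named genes, as a description since genes are no independent replicates, the 3 arrays of 1 week correlated at r = 0.0719 to r = 0.148, and the 6-week array against 1-week control correlated with its dye reversal at r = -0.0302. Between the 2 arrays with reversed dyes r was 0.272. Among genes whose spots lay within 1 log2 unit of each other on all arrays, these values were higher. They were 0.185 to 0.387 for the 1-week arrays, 0.0454 for the 6-week dye swap and 0.429 between the arrays with reversed dyes. A ratio holds no level, so the labelled cell type could not be checked against the abundance of its markers. In bulk RNA of sorted cells, fewer cells of a type and less RNA per cell cannot be told apart.

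Col4a1 and Col4a2, which encode the alpha 1 and alpha 2 chains of collagen IV, lie head to head on mouse chromosome 8 and are known to be transcribed in opposite directions from a common promoter region. The RefSeq promoter windows of the 2 genes, 300 bases each, overlap in 78 bases, and the 2 starts the windows are drawn from lie 21 bases apart. These starts lie past each other, so transcripts from them would overlap, with no gap between the starts. The shared stretch is printed because the 2 genes were low together at 1 week and not at 6 weeks. It is the plus strand at chr8:11312765-11312854 in build GRCm38.p6, read towards Col4a2, with 12 bases of the Col4a2 window before the shared part and with a CCAAT and a GGGCGG in capitals:

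Col4a1 and Col4a2 shared stretch: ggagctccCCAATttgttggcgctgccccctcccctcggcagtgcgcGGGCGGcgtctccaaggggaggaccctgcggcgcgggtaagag

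Both motifs were searched on both strands, as CCAAT or ATTGG and as GGGCGG or CCGCCC, and they do not overlap. The shared 78 bases were 73.1% G or C and held 1 GGGCGG and 0 CCAAT, the printed CCAAT starting before them. The printed GGGCGG lies downstream of both starts, and the printed CCAAT is not a match in the Col4a1 window. In the whole windows, CCAAT matched 1 time for each gene, and GGGCGG matched 1 time for Col4a1 and 3 times for Col4a2. TATAAA (or TTTATA) matched 0 times in either window, and CACCC (or GGGTG) 1 time in each. Of all 32851 windows of this length, 37.4% held a CCAAT, 35.7% a GGGCGG, 13.6% a TATAAA and 57.5% a CACCC, so the 3 motifs found here are common in such windows. A match is only a description of the letters. No windows of Lamc1 and Sparcl1 were available here, so these genes were not searched.

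Col4a2 had the lowest ratio of the 4 genes on each of the 6 arrays. At 1 week its paired spots stood at -1.76 and -1.81 on replicate 1, -1.37 and -1.94 on replicate 2, and -1.66 and -1.88 on replicate 3. The spot means of -1.78, -1.66 and -1.77 gave a mean of -1.74 ± 0.07 (SD, n = 3), a ratio likely 3.34-fold lower after smoke. As deposited, the dye-reversed array and the unreversed ones gave nearly the same value, and the SD was the smallest among the 4 genes. This holds only if the deposited signs are comparable, which is not stated. With both dye-reversed arrays turned, the 1-week mean was -0.55. On these arrays 0.26%, 1.29% and 0.781% of named genes had a lower ratio.

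At 6 weeks Col4a2 stayed below 0 on every array, with values that spread widely. Against 1-week control its spots stood at -0.75 and -0.71 on the unreversed array, a mean of -0.73, and at -1.78 and -1.71 on the dye reversal, a mean of -1.75. Against 6-week control the spots were at -0.54 and -0.53. The 2 arrays with exchanged dyes thus differed by far more than their paired spots, and the array with the control of matching exposure gave the smallest size. With the dye swap averaged, the 6-week mean was -0.88 ± 0.23 (SE from the spread pooled over 5 replicates), likely 1.85-fold lower after smoke and 50.9% of the 1-week size on the log2 scale. Limma gave an unadjusted p of 0.011 and an adjusted p of 1 with Benjamini-Hochberg adjustment over 19242 tests, so the 6-week value did not pass. Among the 5625 genes with spots that lay within 1 log2 unit of each other on all arrays, called agreeing spots here, limma's adjusted p for Col4a2 was 0.226. The pooled spread includes the 1-week arrays that chose the gene. With each exposure time fitted alone, limma gave Col4a2 an unadjusted p of 0.0684 at 6 weeks. With the 6-week dye reversal turned, the Col4a2 mean was -0.012 (unadjusted p of 0.969 by limma), and without that array it was -0.63. It was -1.24 without the array against 6-week control.

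Col4a1, the partner chain, was less strongly negative at 1 week than Col4a2 and lay near 0 at 6 weeks. Its spots were at -1.10 and -0.52 on 1-week replicate 1, -0.54 and -1.16 on replicate 2, and -1.36 for both spots on replicate 3. The spot means of -0.81, -0.85 and -1.36 gave a mean of -1.004 ± 0.31 (SD, n = 3), likely 2.01-fold lower after smoke. All 6 spots were below 0, but the paired spots of replicates 1 and 2 differed by 0.59 and 0.62, against a median difference over genes with 2 spots of 0.21 and 0.29 on those arrays.

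At 6 weeks the Col4a1 spots stood at -0.07 and -0.60 against 1-week control, 0.03 and -0.11 on its dye reversal, and -0.58 and 0.88 against 6-week control. The last pair differed by 1.46 log2 units and in sign on the array with the matching control. The 6-week mean was -0.02 ± 0.23 (SE), with an unadjusted p of 0.931 and an adjusted p of 1 by limma. The first spots alone gave -0.30 and the last spots alone 0.26, so the sign of this mean rests on the choice of spot. The Col4a1 spot means ran from -1.36 to -0.81 at 1 week and from -0.34 to 0.15 at 6 weeks. Since the 1-week values chose the genes, nothing is read from these ranges.

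Lamc1 encodes the laminin gamma 1 chain, shared by most laminin trimers of vessels. At 1 week its spots were at -1.02 and -0.82 on replicate 1, -0.61 and -0.82 on replicate 2, and -0.31 and -0.65 on replicate 3. The mean was -0.71 ± 0.22 (SD, n = 3), likely 1.63-fold lower after smoke, and the dye-reversed array held the lowest spot mean of -0.92. At 6 weeks the spot means were 0.09 against 1-week control, -0.12 on its dye reversal and -0.08 against 6-week control, all close to 0 and with paired spots no more than 0.30 apart. The 6-week mean was -0.05 ± 0.20 (SE), with an unadjusted p of 0.813 and an adjusted p of 1 by limma.

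Sparcl1 encodes hevin, a secreted matricellular glycoprotein related to SPARC. Its 1-week spots were at -1.54 and -1.48 on replicate 1, -0.38 and -0.82 on replicate 2, and -1.30 and -1.04 on replicate 3, with a mean of -1.09 ± 0.46 (SD, n = 3), likely 2.13-fold lower after smoke. Its spread over the 1-week arrays was the widest of the 4 genes, from -1.51 on the dye reversal to -0.60 on replicate 2. At 6 weeks the spots were at -0.18 and -0.37 against 1-week control, -0.74 and -0.69 on the dye reversal, and -0.63 and -0.24 against 6-week control. All 6 of these spots were below 0, and again the dye-reversed array was the lowest. The 6-week mean was -0.46 ± 0.26 (SE), likely 1.38-fold lower, with an unadjusted p of 0.134 and an adjusted p of 1 by limma. With the 6-week dye reversal turned it was -0.11. The 1-week and 6-week ranges of Sparcl1 overlapped, as did those of Col4a2 (-1.78 to -1.66 and -1.75 to -0.53).

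**Figure D1:**
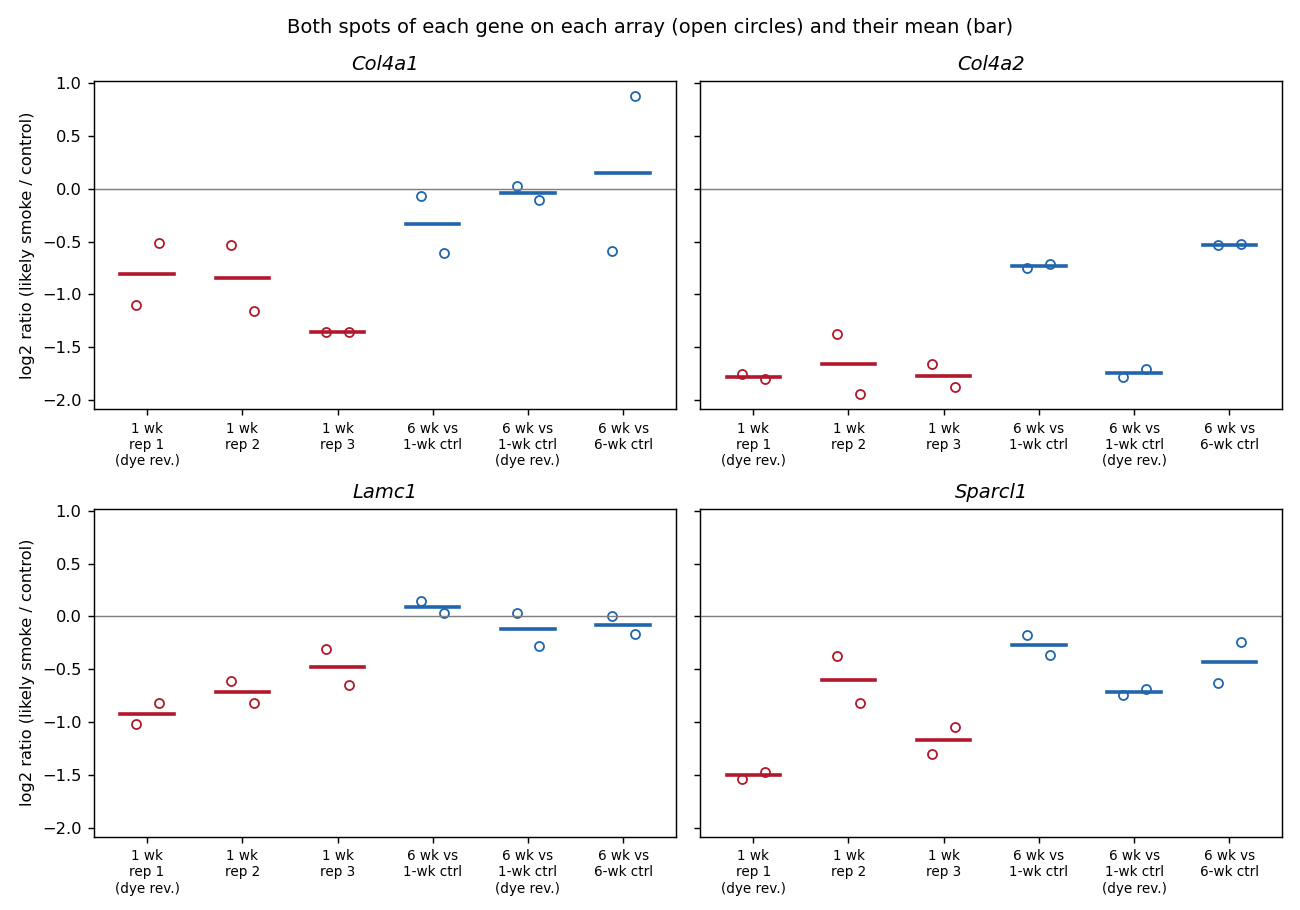
Log2 ratio (likely smoke over control) of Col4a1, Col4a2, Lamc1 and Sparcl1 on the 6 arrays, with both spots as open circles and their mean as a bar, red for 1 week and blue for 6 weeks. All 24 spots at 1 week lie below 0, Col4a2 is the only gene with every array mean below -0.5, and the paired spots of Col4a1 on the array against 6-week control lie on both sides of 0.

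Ordered by the 1-week mean, Col4a2 came first at -1.74, followed by Sparcl1 at -1.09, Col4a1 at -1.004 and Lamc1 at -0.71. The 3 latter genes overlapped in their array values, while every 1-week array of Col4a2 (-1.78 to -1.66) lay below every array of the others. The mean of the 4 genes was -1.26, -0.96 and -1.20 on the 1-week arrays and -0.31, -0.66 and -0.23 on the 6-week arrays. The 6-week minus 1-week difference was 0.98 for Col4a1, 0.85 for Col4a2, 0.66 for Lamc1 and 0.63 for Sparcl1. These differences contain the 1-week values that chose the genes and were not tested.

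As a group, 4 of 4 genes had both spots below 0 on all 3 arrays at 1 week, the contrast that chose them, where 5.83% of the 10180 genes with 2 spots did. At 6 weeks 2 of 4 did, Col4a2 and Sparcl1, where 4.50% of genes did. At 6 weeks 0 of 4 had a limma p under 0.05 after Benjamini-Hochberg adjustment, and 0% of all 19242 tests did. An unadjusted p under 0.05 was reached by 1 of the 4, Col4a2, and by 4.12% of all tests (792, or 761 with robust limma, which also gave 0 passing). The call of Col4a2 rests on a spread that includes the 1-week arrays. With each exposure time fitted alone, limma's unadjusted p was 0.0684 for Col4a2 and 0.0476 for Sparcl1, and 749 of all tests were under 0.05. With 4 genes, these counts are not a result about the group.

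**Figure D2:**
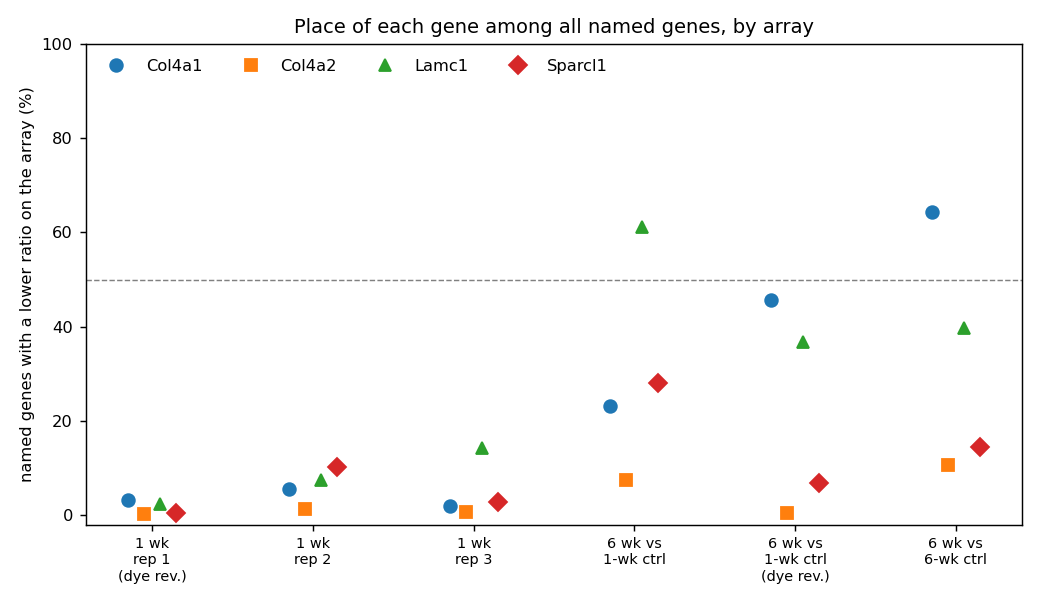
Share of the 11138 named genes with a lower ratio than Col4a1, Col4a2, Lamc1 and Sparcl1 on each of the 6 arrays, in percent, with a dashed line at the middle of the scale. At 1 week every value is at or under 14.2%, while at 6 weeks Col4a2 lies between 0.467% and 10.7%, Sparcl1 between 6.81% and 28.1%, and Col4a1 and Lamc1 between 23.2% and 64.3%.

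The other chains of the same families lay closer to 0 at 1 week, Lama1 apart. Of the remaining collagen IV chains, which form networks found chiefly in kidney, lung and smooth muscle, Col4a3 was at -0.02, Col4a4 at -0.02, Col4a5 at -0.05 and Col4a6 at 0.17 at 1 week, each as a mean of 3 arrays. At 6 weeks Col4a3 was at 0.22, Col4a4 at 0.08, Col4a5 at -0.27 and Col4a6 at -0.06. All 4 had an unadjusted p above 0.05 in limma at both times, and the spots of Col4a5 differed by up to 2.61. None was negative on all 3 arrays at either time, where 15.6% of named genes were at 1 week and 13.0% at 6 weeks.

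Among the laminins, Lama4, the alpha chain typical of endothelium, was at -0.26, -0.12 and -0.40 on the 1-week arrays, the same sign as Lamc1 with a mean of -0.26 ± 0.18 (SE). Lama5, the other alpha chain of vessels, had a 1-week mean of 0.04, and the beta chains Lamb1 and Lamb2, with which Lamc1 assembles, had means of -0.11 and 0.00. Lama2 was at 0.08, Lama3 at -0.32, Lamb3 at -0.21 and Lamc3 at 0.22. Lama1 had a mean of -0.94 that came from replicate 2 alone (-3.34, against 0.27 and 0.26), with spots up to 4.89 apart. At 6 weeks Lama4 was at 0.01, Lama5 at -0.44, Lamb1 at -0.49 and Lamb2 at -0.36, the last 3 with their lowest array against 6-week control. None of the 9 other laminin chains had an unadjusted p under 0.05 in limma at either time.

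Sparc, the closest relative of Sparcl1 and a collagen IV binding protein, was at -0.13, 0.32 and 0.74 on the 1-week arrays, negative like Sparcl1 on replicate 1 and positive on the others. Its mean was 0.31 ± 0.26 (SE), with an unadjusted p of 0.291 by limma. At 6 weeks Sparc was at -1.08 and -1.01 on the 2 arrays against 1-week control and at -0.13 against 6-week control, a mean of -0.59 ± 0.32 with an unadjusted p of 0.124 and an adjusted p of 1 by limma. The 2 dye orientations gave similar Sparc values as deposited, and with both reversed arrays turned the 6-week mean was -0.081. Without the array against 6-week control it was -1.04. Fstl1, a secreted glycoprotein of the family, was at 1.76, -0.21 and 0.54 at 1 week and had a 6-week mean of 1.09, with every 6-week array at 0.84 or above and an unadjusted p of 0.0607. With both reversed arrays turned its means were -0.47 and 0.67. Smoc1, a basement membrane calcium-binding protein, was at 0.52 ± 0.18 (SE) at 1 week, positive on all 3 arrays, with an unadjusted p of 0.0301, but at -0.023 with both reversed arrays turned. Smoc2, Spock1, Spock2 and Spock3 had 1-week means of -0.14, -0.10, -0.45 and 0.12, and 6-week means of 0.00, 0.15, 0.52 and -0.80, the last 2 with spots over 3 log2 units apart on an array (3.47 and 3.25).

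**Figure D3:**
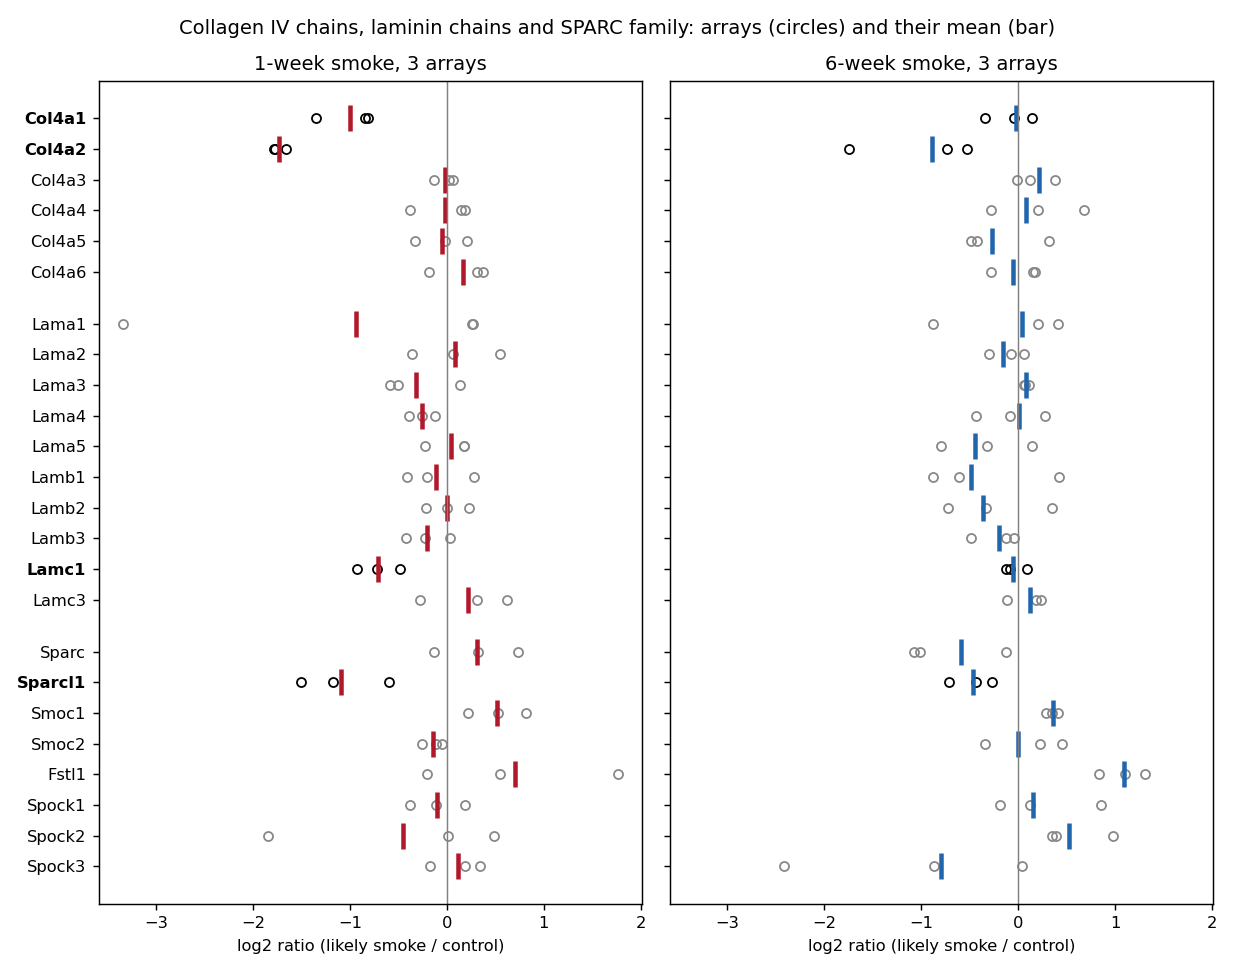
Log2 ratio (likely smoke over control) of the measured collagen IV chains, laminin chains and SPARC family genes, on 3 arrays at 1 week (left) and 3 at 6 weeks (right). Circles are arrays, black and bold for Col4a1, Col4a2, Lamc1 and Sparcl1, and bars are means, at 6 weeks with the dye swap averaged first. At 1 week the bars of those 4 genes lie at -0.71 or lower, and the bar of Lama1 at -0.94 is drawn there by 1 array at -3.34.

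The wider pathway was followed in 7 lists of 141 symbols, of which 98 other genes were measured. At 1 week 61 had a negative and 37 a positive mean, with a median of -0.05, against a median of -0.01 over all named genes. Of all 11138 named genes, 5689 had a negative and 5446 a positive mean at 1 week, and 5683 and 5450 at 6 weeks. Limma gave 0 passing genes with Benjamini-Hochberg adjustment, as it did over all tests, and robust limma gave 0. An unadjusted p under 0.05 was reached by 2 negative and 4 positive genes, 6 of 98, where 6.65% of all tests reached it (3.12% negative, 3.53% positive). At 6 weeks 45 were negative and 53 positive, with a median of 0.02, and again 0 passed. An unadjusted p under 0.05 was reached by 0 negative and 8 positive genes, where 1.94% and 2.18% of all tests did. Leaving out 1 array at a time moved these counts of 6 and 8 to between 2 and 10 and between 5 and 11. With the 6-week dye reversal turned the 6-week count was 3, and with both reversed arrays turned the counts were 2 at 1 week and 2 at 6 weeks.

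Structural components other than the chains had a 1-week median of 0.00 over 14 genes, 7 negative and 7 positive. Nid1, the nidogen that links laminin gamma 1 to collagen IV, was negative on all 3 arrays at -0.12, -0.26 and -0.51, and Nid2 was at 0.13. Agrn, a heparan sulfate proteoglycan, had a mean of -1.66 (unadjusted p of 0.0449), of which replicate 2 held -3.69 with spots up to 6.32 apart, and the mean without it was -0.64. Col15a1 and Col18a1, the multiplexins of vessel walls, were at -0.20 and 0.17. At 6 weeks the median was 0.08, and the elastic fibre fibulins Fbln5 and Fbln2 had means of 0.66 ± 0.21 and 0.56 ± 0.18 (SE), positive on all 3 arrays, with unadjusted p of 0.0213 and 0.025 and adjusted p of 1 by limma.

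Genes of collagen processing, which hydroxylate, fold and cross-link the chains, had a 1-week median of -0.18 over 15 genes, 11 of them negative, and a 6-week median of -0.02. Over all named genes, 5689 of 11138 had a negative 1-week mean. None of the collagen processing genes had an unadjusted p under 0.05 at 1 week. At 6 weeks Lox, which cross-links collagen, was at 0.25, 1.36 and 2.02, a mean of 1.41 ± 0.41 (SE) with an unadjusted p of 0.0156, and 0.80 without the array against 6-week control. Matrix receptors had medians of -0.05 and 0.02 over 21 genes. Itgb1, the beta subunit of the main collagen and laminin integrins, was at 0.11 at 1 week and 1.18 ± 0.47 at 6 weeks (unadjusted p of 0.0491), with spots up to 1.92 apart.

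Proteases and their inhibitors had medians of -0.05 and 0.06 over 28 genes, and held 4 of the 6 unadjusted calls at 1 week and 4 of the 8 at 6 weeks. Adam9, a membrane-bound metalloprotease, was at 0.68, 0.69 and 0.91 at 1 week and 0.66, 0.73 and 0.80 at 6 weeks, on all 6 arrays opposite in sign to Col4a2. Its 1-week mean of 0.76 ± 0.15 (SE) had an adjusted p of 0.479 over all tests and 0.0384 among genes with agreeing spots, where 1.81% of 5625 genes passed, and its 6-week mean was 0.75 ± 0.18. Timp3, a matrix-bound inhibitor of metalloproteases, was at 0.54 ± 0.15 at 1 week and 0.82 ± 0.18 at 6 weeks (unadjusted p of 0.0139 and 0.00559), positive on all 6 arrays with spots at most 0.18 apart. With both reversed arrays turned, the 1-week and 6-week means were 0.31 and 0.38 for Adam9 and 0.11 and 0.60 for Timp3. Adamts1 and Mmp2, which cleave proteoglycans and collagen IV, were at 0.12 and -0.05 at 1 week and at 0.63 ± 0.19 and 0.61 ± 0.20 at 6 weeks. The 6-week arrays of Mmp2 were at 0.69, 0.12 and 0.82, and the mean without the array against 6-week control was 0.40. Adam17 was at 0.43 ± 0.17 at 1 week and -0.12 at 6 weeks. Turning both reversed arrays gave 0.13 for Adam17 at 1 week, and 0.29 for Adamts1 and 0.55 for Mmp2 at 6 weeks. Serpinf1, a secreted inhibitor of vessel growth, was at -0.90 ± 0.26 at 1 week, with arrays from -1.47 on the dye reversal to -0.24 on replicate 2. Apart from Adam9 at 1 week among agreeing spots, none of these passed limma with adjustment.

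Markers of the cells that make or touch the basement membrane were read on the same arrays. Of 13 endothelial markers, 8 were negative at each time, with array medians from -0.21 to -0.08 at 1 week and from -0.48 to 0.03 at 6 weeks. The largest 1-week means were those of the junction gene Cldn5 at -0.68, Egfl7 at -0.61, Cdh5 at 0.58 and Robo4 at -0.52, the last 2 with spots 8.12 and 3.61 apart on an array. At 6 weeks they were those of Cldn5 at -0.90, Kdr at -0.56, Eng at -0.49 and Emcn at -0.45, and with both reversed arrays turned these 6-week means were -0.071, 0.29, 0.11 and -0.16, so that Kdr and Eng changed sign. Of 11 pericyte and smooth muscle markers, 6 were negative at 1 week and 9 positive at 6 weeks, with array medians from -0.13 to 0.24 and from 0.05 to 0.52. The pericyte channel genes Abcc9 and Kcnj8 were at 1.28 and 1.07 and Acta2 at 1.14 at 6 weeks, and at 0.58, 0.83 and 0.44 with both reversed arrays turned. Of 9 fibroblast markers, 1 of which (Fbln1) also stands in a pathway list, 4 were negative at 1 week and 6 at 6 weeks, with array medians from -0.45 to 0.02 and from -0.20 to -0.09. At 1 week Dpt was at -1.33, Col3a1 at -0.69, Postn at 0.61 and Dcn at -0.54, and at 6 weeks Postn was at 2.25 and Dpt at -0.53. With both reversed arrays turned, the 1-week means were -0.53 for Dpt, 0.43 for Col3a1, 0.11 for Postn and -0.060 for Dcn, and of the endothelial markers -0.26 for Cldn5, -0.36 for Egfl7, 0.71 for Cdh5 and -0.016 for Robo4. The array medians of 9 leukocyte markers ran from -0.15 to 0.04 and from -0.14 to -0.03, those of 7 epithelial markers from -0.27 to 0.22 and from -0.24 to 0.18, and those of 2 erythroid markers from 0.11 to 0.69 and from -0.58 to -0.11. None of the markers passed limma with adjustment over all tests, and Dpt at 1 week had an adjusted p of 0.0193 among genes with agreeing spots. At 1 week the endothelial list had a median of -0.06, with 5 of 13 markers positive, and the fibroblast list a median of 0.08, with 5 of 9 positive. An unadjusted p under 0.05 in limma was reached at 1 week by 4 negative and 1 positive endothelial markers. Among fibroblast markers 3 negative and 0 positive ones reached it. Of all tests, 3.12% reached it as negative and 3.53% as positive. Pericytes and fibroblasts also make collagen IV. The part of these markers in the values of the 4 genes was not tested.

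**Figure D4:**
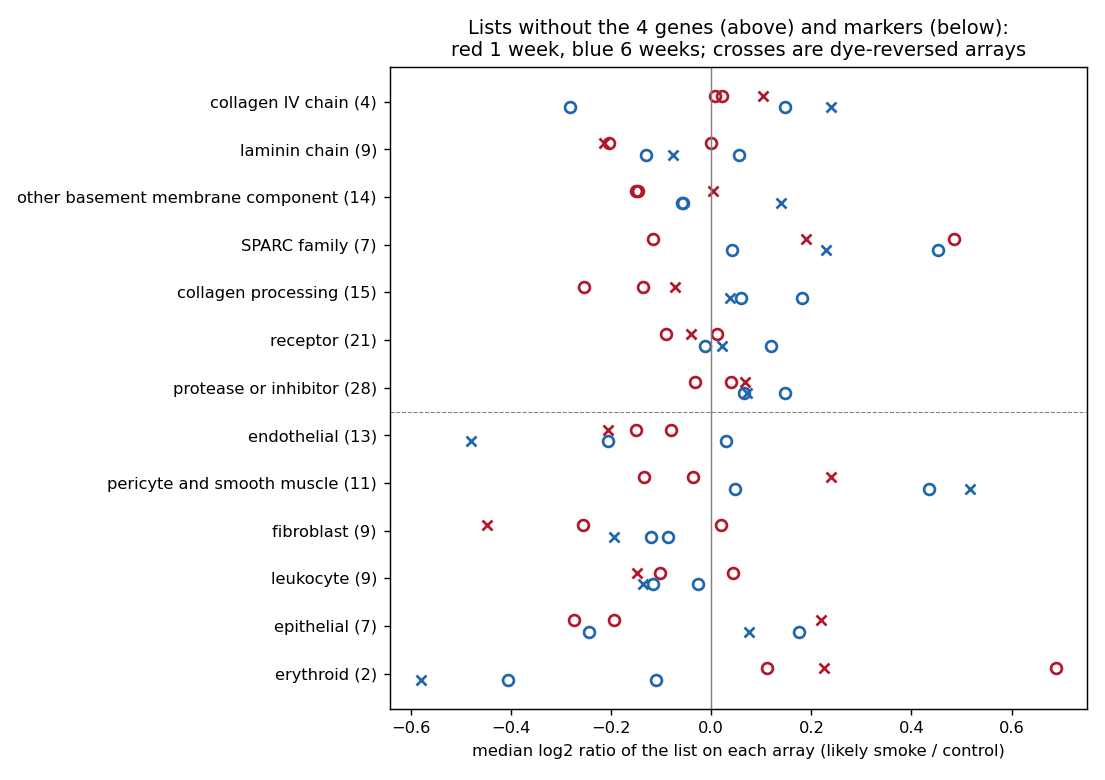
Median log2 ratio (likely smoke over control) of 7 basement membrane lists, without the 4 genes, and of 6 lists of cell type markers on each of the 6 arrays, with the number of measured genes in brackets. Red stands for 1 week, blue for 6 weeks and crosses for dye-reversed arrays. At 6 weeks the pericyte and smooth muscle median lies between 0.05 and 0.52 and the endothelial median between -0.48 and 0.03.

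The genes whose pattern over the 6 arrays was most like that of the 4 genes were searched for without regard to the lists. Likeness was the root mean square difference of the 6 log2 ratios, searched among the 5625 genes with agreeing spots. Nearest to Col4a2 were Ifi27l2a at 0.306, Mt2 at 0.451, Dpt at 0.483, Fabp5 at 0.496 and Rplp2 at 0.501. Nearest to Col4a1 were Rps13 at 0.193, Mrpl52 at 0.211, Tmem179b at 0.215, Pi16 at 0.238 and Cd302 at 0.253. Lamc1 had closer neighbours, with Npdc1 at 0.106, Eef1b2 at 0.116, Plac8 at 0.119, 1810037I17Rik at 0.148 and Gpx1 at 0.153. For Sparcl1 they were Atp5j2 at 0.142, Edf1 at 0.184, Gsn at 0.193, Atp5l at 0.223 and S100a13 at 0.245. The mean of the 4 genes lay closest to Ndufb7 at 0.191, Trmt112 at 0.238, Edf1 at 0.249, Atp5j2 at 0.258 and Eif3k at 0.263. Of these 25 names, 23 of them distinct, 0 stand in the basement membrane lists, while Dpt is among the fibroblast markers. Those lists hold only 64 other genes with agreeing spots among the 5625, so the 0 is not read as a result. By Pearson correlation in place of the difference, 2 of the 25 were named again, so the list depends on the measure. Among the other 11137 named genes, Col4a2 ranked 7376 in nearness to Col4a1, with 66.2% of genes nearer, and their root mean square difference was 0.94. This measure also counts a difference in size, and Col4a2 was lower than Col4a1 on every array. In the other direction Col4a1 ranked 94 in nearness to Col4a2. Sparcl1 ranked 14 in nearness to Col4a2, and Col4a2 ranked 600 in nearness to Sparcl1. Lamc1 ranked 79 in nearness to Col4a1 and Col4a1 630 in nearness to Lamc1, while Col4a2 ranked 10298 in nearness to Lamc1. The 6 ratios include the low 1-week values that chose the 4 genes. Nearness among the 4 is therefore partly set by that choice, and nothing is read from these ranks.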

How the data were processed

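Gene expression of sorted mouse endothelial cells was compared on 6 arrays with 2 channels each. The deposited values are log2 ratios, 1 for each of 32448 features and array. Per the labels, channel 1 is smoke and channel 2 control. Scanner, dyes, background correction, normalization and filters are not given in the sources used here. On 5 arrays 100.00% and on 1-week replicate 2 99.99% of the values are log2 of a fold in whole hundredths (within 0.02 of a hundredth), and each array has a median of 3e-07. Direction and centring are not stated. No intensities were analysed here, which leaves dim spots unassessed.

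GEO's platform annotation, which can be old, gave 24344 features 1 symbol and 98 several, and 8006 had none. Entrez identifiers matched RefSeq (GRCm38.p6, used for names) for 24076 features and changed 0 symbols. Spots of a gene were averaged on each array after centring on the array median. The 11138 genes and 8104 unnamed features gave 19242 tests in limma 3.58.1 (R 4.3.3), with lmFit and eBayes and 1 coefficient per exposure time, after averaging the 6-week dye swap (5 replicates, 3 residual degrees of freedom). The 1-week dye reversal counted as a replicate. Thresholds were 0.05. The fit was tested on simulated data.

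All arrays kept their deposited sign. An earlier rule turned the 6-week dye reversal on a correlation close to 0, so this became an alternative. Other alternatives changed centring, scale, quantile normalization, spots, averaging, dye term, control, variance model and arrays. The 4 genes and all lists were chosen with earlier results of these data known. Named genes were the 4, all measured collagen IV, laminin and SPARC family genes, up to 4 others per list and time with the smallest unadjusted p under 0.05, up to 4 examples per marker list and time with the largest mean in size, and the 5 nearest genes per likeness search. Nid1, Nid2, Col15a1 and Col18a1, and values of a gene at its other exposure time were added after their values were seen. Promoter windows are from RefSeq.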

Additional observations from a re-analysis of the deposited data

How the results depend on the processing

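With both dye-reversed arrays turned, the 1-week means were -0.46 for Col4a1, -0.55 for Col4a2, -0.092 for Lamc1 and -0.090 for Sparcl1, and among other named genes the 1-week mean of Serpinf1 became 0.087, that of Smoc1 -0.023 and that of Fstl1 -0.47. Col4a2 at 1 week was -1.60 from the first spots, -1.88 from the last and -1.84 with dye orientation as a covariate, beyond its SD but with the same sign. The 6-week mean of Col4a1 became 0.030 with quantile normalization, 0.26 from the last spots and 0.15 against 6-week control only, and that of Lamc1 became 0.012 with the 6-week dye reversal or both reversed arrays turned, 0.0039 with both left out and 0.045 from the first spots. The cause was not tested. Leaving out each array in turn gave 1-week means from -1.10 to -0.83 for Col4a1, -1.78 to -1.72 for Col4a2, -0.82 to -0.60 for Lamc1 and -1.34 to -0.89 for Sparcl1, and 6-week means from -0.19 to 0.053, -1.24 to -0.63, -0.10 to 0.0039 and -0.57 to -0.35. Over all alternatives run, the adjusted p at 6 weeks ran from 0.226 to 1 for Col4a2, 0.72 to 1 for Sparcl1 and 0.929 to 1 for Lamc1, and was 1 for Col4a1. Among genes with agreeing spots, where fewer genes are tested and Col4a1 has no value, 102 genes passed at 1 week and 12 at 6 weeks against 0 over all tests, and 1 pathway gene passed at 1 week. Each ratio already pairs smoke with control on the same array. Apart from averaging the 6-week dye swap, the main fit paired no arrays, since the labels give them no replicate numbers.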

Other observations

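Col4a1 and Col4a2 are 1 of 261 measured gene pairs whose RefSeq promoter windows overlap on opposite strands. Over these pairs the 1-week means of the partners correlated at r = 0.0876, with a median difference of 0.271 between partners, and the 6-week means at r = 0.0272. The 261 pairs include Col4a1 and Col4a2, with the 1-week means of -1.004 and -1.74 that chose them. Over the 70 pairs with agreeing spots in both genes, r was 0.251 at 1 week and -0.0888 at 6 weeks. Col4a1 lacks agreeing spots, so these 70 leave out Col4a1 and Col4a2. Partners share arrays and are not replicates, so these values are a description.

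The spots of Col4a1 and Col4a2 stand side by side in the value table. The median of the 38 features next to those of Col4a2, 20 on each side without Col4a1, was -0.137, -0.251 and -0.151 on the 1-week arrays, and on these arrays 2, 0 and 0 of the 38 lay below Col4a2. Whether the order of the table follows the position on the array is not stated.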
